A study of Mus musculus with 8 samples.

Results

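The genes described here encode the subunits of non-muscle myosin: the heavy chains Myh9 and Myh10, the essential light chain Myl6 and the regulatory light chains Myl9, Myl12a and Myl12b. They were chosen by name, with 2 measured values in view, the wild type and the mutant ChIP concentration of a site next to Myh9, which is among the strongest of the wild-type-favoured sites by its wild type concentration, though not by its difference. Those concentrations are therefore given as a description, with no test. Of the 6 genes, 5 are among the 11364 genes listed in both gene tables, and Myl9 is not listed. Of the 5551 merged binding sites, 1 has a non-muscle myosin gene as its closest transcription start site (TSS), and that gene is Myh9.

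The study asked how a substitution in a zinc finger of the erythroid transcription factor KLF1, E339K in the mouse, changes its binding and the genes it switches on. K1 is an immortalised erythroid line from mouse fetal liver that lacks Klf1. K1-E339K-ER cells, named K1-CDA-ER in the labels, are K1 cells that carry the mutant protein fused to a ligand-binding part of the estrogen receptor, and K1-ER cells carry wild type KLF1 in the same form. The ligand 4-hydroxytamoxifen (4-OHT) brings the fusion protein into the nucleus.

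RNA labelled with 4-thiouridine (4sU), which marks newly made transcripts, was sequenced from 3 K1 libraries and 3 K1-E339K-ER libraries, the latter from clones 1B, 2A and 2B. The labels give a 4sU dose of 500 µM for 30 min, while the study's methods state another dose and time. All of these had 200 nM 4-OHT except 1 K1 library, which is labelled with ethanol although its treatment protocol names 4-OHT, so its treatment is in doubt. KLF1-E339K-ER binding was read from 1 ChIP library and 1 input library of clone 2A after 3 h in 200 nM 4-OHT, each made from 3 pooled replicates. The wild type KLF1-ER ChIP and K1-ER RNA libraries come from earlier work by the same group and their labels were not analysed here. The transgenes were delivered by a retrovirus and each RNA replicate of K1-E339K-ER is a separate clone, so clone and replicate cannot be told apart. The line lacks Klf1 throughout, and each fusion protein was expressed in a line of its own.

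Non-muscle myosin is a motor that pulls on actin filaments. Each molecule joins a pair of heavy chains, which hold the motor and the tail, with essential light chains that stiffen the neck and regulatory light chains whose phosphorylation switches the motor on. In blood cells it drives the cleavage furrow of dividing cells, supports the membrane skeleton of red cells and acts in the shape changes of maturing erythroblasts, and inherited MYH9 variants give large platelets.

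The only binding site by a member lies at the start of Myh9, the heavy chain of non-muscle myosin IIA, at chr15:77672442-77672991 in mm9. It is 550 bp wide, wider than 91.5% of the 5551 sites, whose median width is 330 bp. Its midpoint lies 111 bp upstream of the start of the Myh9 gene as annotated in GENCODE release M1, where the gene is on the minus strand, and 172 bp upstream of the TSS used in the site table. The last 164 bp of the site in the direction of transcription cover part of the first exon, which is 5′ UTR, and the other 386 bp lie outside the gene. The site is therefore a promoter site, with its midpoint in no annotated gene.

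The sequence upstream of that start, on the gene's strand, is shown because it holds the motif match nearest to the midpoint of the site. Capitals mark bases that match the pyrimidine motif explained next, and the bases are those of mm9 chr15:77672606-77672905, minus strand, with the gene starting just after the last base.

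Myh9 upstream: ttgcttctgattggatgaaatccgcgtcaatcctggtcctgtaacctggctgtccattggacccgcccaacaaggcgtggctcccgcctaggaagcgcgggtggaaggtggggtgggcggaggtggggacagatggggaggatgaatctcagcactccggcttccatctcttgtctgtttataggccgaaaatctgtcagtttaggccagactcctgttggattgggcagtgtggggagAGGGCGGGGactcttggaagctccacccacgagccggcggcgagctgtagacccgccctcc

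The study names a motif for each protein, of 9 bases, which differ at position 5. The pyrimidine motif, that of wild type KLF1, was searched as any base followed by GGGCGGGG, GGGCGTGG, GGGTGGGG or GGGTGTGG. The purine motif, that of KLF1-E339K, was searched as any base followed by GGGAGGGG, GGGAGTGG, GGGGGGGG or GGGGGTGG. Both strands were read, and the same 9 bases on the same strand cannot match both motifs, although neighbouring matches can overlap. The word AGATAA, bound by GATA factors, was searched as well.

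Within 50 bp of the midpoint of the Myh9 site there were 0 pyrimidine and 0 purine matches. At this width 35.3% of all sites held a pyrimidine match and 35.5% a purine match. The pyrimidine match in the sequence above starts 50 bp from the midpoint and ends 58 bp from it, so it lies inside a window of 100 bp either side, where 47.2% of all sites held a pyrimidine match. Of that match, only the first base reaches the edge of the narrower window. Over its whole width it held 3 pyrimidine matches, 0 purine matches and 0 AGATAA words. In windows as wide as this site, 65.4% of all sites held at least 1 pyrimidine match, 17.4% held at least 3, 64.4% held a purine match and 26.8% held AGATAA. Over all sites a pyrimidine match was thus common at this width, as was the purine match that the Myh9 site did not have. Among wild-type-favoured sites 82.4% held a pyrimidine match and 41.0% a purine match in such windows.

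The other matches in the site lie in the first exon of Myh9, and each is shown with 10 bases on either side, on the strand that carries it, with the match in capitals. The first is at mm9 chr15:77672452-77672480 on the plus strand and the second at chr15:77672580-77672608 on the minus strand.

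Myh9 first exon: gcggcgcggcGGGGTGGGGcgaacgcgag
Myh9 first exon: tcctcttggaAGGGCGGGGcagggagggc

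The match upstream of the gene and the second of these share the same 9 bases, AGGGCGGGG, and both stand on the strand of the gene.

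**Figure D1:**
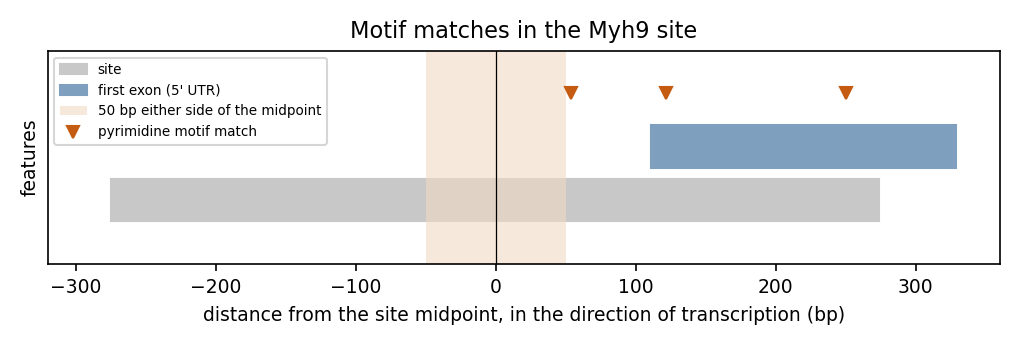
Map of the Myh9 site, with distance from its midpoint in bp in the direction of transcription on the x axis. The grey bar is the site, the blue bar the first exon, the shaded band 50 bp either side of the midpoint, and triangles the centres of the 3 pyrimidine matches, at 54, 122 and 250 bp downstream of the midpoint, all outside the band.

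Occupancy is given as the authors' concentration, the log2 of the mean normalised read count of a site for each protein. The Myh9 site had a wild type concentration of 8.42 and a mutant concentration of 4.94. The wild type minus mutant difference, computed here from those means, was 3.48 on the log2 scale, an 11.2-fold higher mean for wild type KLF1-ER. The mutant ChIP has 1 library, made from pooled replicates, so there is no spread between libraries for it. For the wild type 1 mean is listed, and the spread behind it is unknown.

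A site was called favoured by a protein when the difference reached 1 on the log2 scale, which is 2-fold, in that protein's direction. By this rule 28.7% of all 5551 sites were favoured by the wild type and 61.5% by the mutant. The Myh9 site is among the 1591 favoured by the wild type. Since it was chosen for this contrast, nothing is read from its call.

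The wild type concentration of the Myh9 site was the highest of the table, and its rank by mutant concentration was 2616 of 5551. By the signed wild type minus mutant difference, from the most wild-type-favoured down, its rank was 700. These ranks restate the values the site was chosen with. Among the wild-type-favoured sites the median difference was 3.23, and 55.8% had a smaller difference than the Myh9 site. Its mutant concentration was higher than that of 97.3% of wild-type-favoured sites, whose median mutant concentration was 2.21. Over all sites, those favoured by the wild type included, the median mutant concentration was 4.86. These placements also restate values the site was chosen with, and nothing is read from them.

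The GC content of the Myh9 site was 66.5%, above that of 82.8% of all sites, with a median of 59.1%. Among wild-type-favoured sites 60.7% held a pyrimidine match within 50 bp of the midpoint and 16.0% a purine match.

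**Figure D2:**
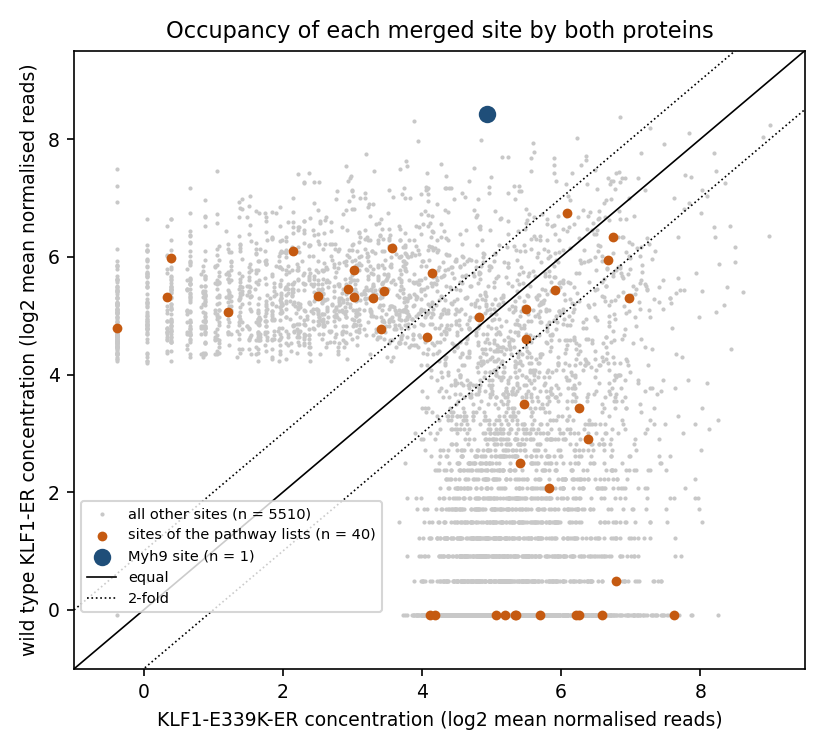
Wild type KLF1-ER concentration against KLF1-E339K-ER concentration of each merged site, both as the authors' log2 mean normalised reads, with 1 point per site. The Myh9 site lies at the top of the plot, at 8.42 for the wild type and 4.94 for the mutant, and the 40 sites of the pathway lists spread over both arms.

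The 3 sites most like the Myh9 site were named by Euclidean distance in the wild type and mutant concentrations. The nearest, at a distance of 0.45, was a site in an intron of Foxk1 whose closest TSS is Ap5z1, with concentrations of 7.98 for the wild type and 4.85 for the mutant. The second, at 0.76, lay 174 bp upstream of the TSS of Ucp2, a mitochondrial carrier, with 7.69 and 5.15. The last, at 0.79, lay 223 bp downstream of the TSS of Fam71e1, with 7.69 and 5.23. Their widths were 539, 592 and 571 bp, beside 550 bp for the Myh9 site, and their concentrations are alike because they were picked for that.

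Within 50 bp of the midpoint the Ucp2 and Fam71e1 sites held 0 matches to either motif, as the Myh9 site did, and the Ap5z1 site held 1 pyrimidine match. The Ap5z1 site held 3 pyrimidine and 8 purine matches over its whole width, the Ucp2 site 4 and 3, and the Fam71e1 site 2 and 0. The absence of a purine match was thus shared by the Myh9 and Fam71e1 sites among these.

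RNA levels are the authors' mean log2 CPM, a read count scaled to library size, over all libraries of their fit. The same value stands in both gene tables, so it pools the cell lines and carries no comparison between them, and no value per library was analysed here. To compare genes, the level was divided by the deposited gene length, which for the listed members lies within 5.51% of the annotated gene span, introns included, as suits newly made RNA. A value per kb is thus log2 CPM minus log2 of the length in kb.

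Myh9 had a mean of 7.87 log2 CPM over 81527 bp, or 1.52 per kb. Myh10, the heavy chain of non-muscle myosin IIB, had 8.24 log2 CPM over 124710 bp, or 1.27 per kb. The heavy chains were 1.19-fold apart per kb of gene length, with Myh9 higher, and both were above the median of all genes, 0.82 per kb. Per kb of exon length Myh10 was higher instead, by 1.59-fold. By percentile among the 11364 genes, Myh9 was at 62.2 and Myh10 at 57.7 per kb. The spread between libraries is not in the tables, so it cannot be said whether neighbours in this order differ.

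Myh10 has no site of its own. The site nearest to its start, of all in the table, lies 97983 bp upstream in an intron of Ccdc42. It had a wild type concentration of -0.09 and a mutant concentration of 5.20. The value of -0.09 is the lowest wild type concentration of the table, shared by 1424 sites, so a difference against it depends on that lower end.

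Of the heavy chains, a binding site was listed for Myh9 alone. The coding sequences of the longest Myh9 and Myh10 transcripts, of 5883 and 6042 bp, were identical at 74.7% of aligned bases. No protein sequences were used here, and identity was therefore computed on coding bases.

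Myl6, the essential light chain, had a mean of 4.48 log2 CPM over 2965 bp, or 2.92 per kb. This was the highest level per kb of the members, at a percentile of 83.1, and 2.64-fold above Myh9. Its gene is the shortest of those listed.

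The site nearest to the start of Myl6 lies 20089 bp downstream of it, beyond the end of the gene, in an intron of Smarcc2, a subunit of SWI/SNF chromatin remodelling complexes. There the wild type concentration was 4.86 and the mutant 0.05. The difference of 4.81 favoured the wild type, and the site held 5 pyrimidine and 0 purine matches within 50 bp of its midpoint. Its closest TSS is that of Smarcc2, so it is not counted as a Myl6 site.

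Among the regulatory light chains, Myl12a had a mean of 4.58 log2 CPM over 8741 bp, or 1.46 per kb. Myl12b had 2.60 log2 CPM over 16554 bp, or -1.45 per kb. Per kb of gene length Myl12a was thus 7.52-fold above Myl12b, and within 1.04-fold of Myh9. Per kb of exon length it was 2.13-fold above Myl12b and 2.41-fold below Myh9. By percentile per kb Myl12a was at 61.0 and Myl12b at 19.2, the lowest of the members. Myl9, the regulatory light chain best known from smooth muscle, was not listed in either gene table, and whether it was made below the limit for listing was not tested.

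Myl12a and Myl12b lie in tandem on chromosome 17, on the minus strand and 2868 bp apart, and in GENCODE release M1 the former is named 2900073G15Rik. Their coding sequences, of 519 bp each, were identical at 96.5% of bases. The study's methods state that reads of low mapping quality were removed, which bears on reads that fit both genes equally well, and how many of these were removed is unknown. These levels are uncertain for that reason. A long non-coding RNA on the opposite strand, Gm16724, spans both genes, and without strand its reads cannot be told apart from theirs. The coding sequence of Myl9 was identical to that of Myl12a at 85.5% and to that of Myl12b at 86.3% of bases.

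No site lies within 100 kb of the start of Myl12a or Myl12b. The nearest to both is the same one, between genes, with Tgif1 as closest TSS, more than 10 kb away. It lies 133016 bp downstream of Myl12a and 120925 bp downstream of Myl12b. The wild type concentration there was 0.91 and the mutant concentration 5.31. For Myl9 the nearest lies 65460 bp downstream in an intron of Tgif2, with 0.50 and 6.03. Both sites favoured the mutant, and both have another gene as closest TSS.

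In order of level per kb of gene length, the members ran Myl6, Myh9, Myl12a, Myh10 and Myl12b. With exon length in place of gene length the order was Myl6, Myh10, Myh9, Myl12a and Myl12b, at 5.07, 4.85, 4.18, 2.91 and 1.82 per kb. Myl6 stayed highest and Myl12b lowest on both scales, while the heavy chains changed places.

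**Figure D3:**
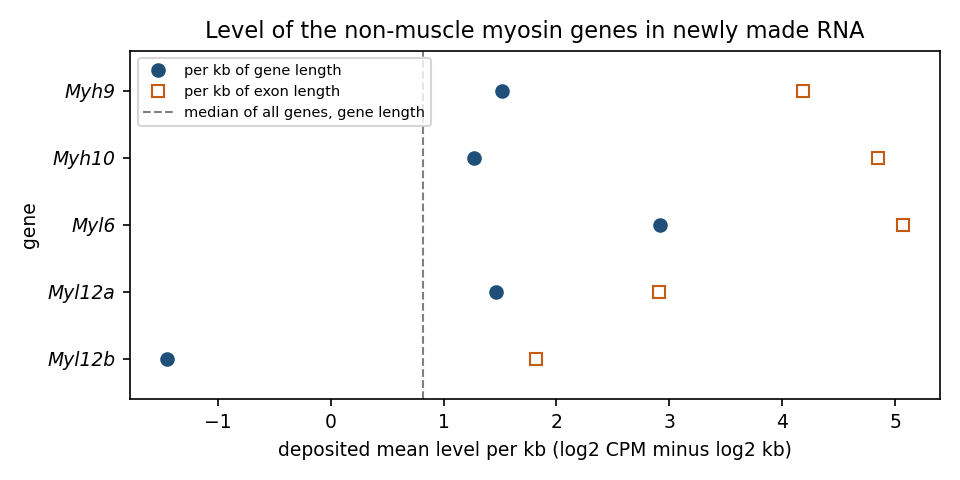
Deposited mean level of the 5 listed non-muscle myosin genes, pooled over all libraries, per kb on a log2 scale. Circles use gene length, open squares exon length, and the dashed line is the median of all genes by gene length, 0.82; all but Myl12b, at -1.45, lie above it.

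Promoters were read from RefSeq on GRCm38.p6, as 250 bases before and 50 after each gene's start, and all 6 members matched, with 7 windows since Myl6 has 2. Pyrimidine matches were found in the promoters of Myh9, Myl9, Myl12a and Myl12b, and purine matches in those of Myl6 and Myl9. Of 32851 promoters, 29.7% held a pyrimidine match, 22.6% a purine match and 11.2% AGATAA, which was in 0 of the 7 windows. Myh10 had no match to any of these words in its window.

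Myh9 had 2 pyrimidine matches there, and its promoter was alone among those of the members in also having a site. Myl12a and Myl12b had 1 each and Myl9 had 3, with no site listed for any of them. The matches in the other promoters are shown to compare them with that of Myh9, each on the strand that carries it, with matched bases in capitals. Their places in mm9, found by exact match near each gene, are chr17:71351925-71351953 on the minus strand for Myl12a, chr17:71339897-71339925 on the plus strand for Myl12b, and chr2:156601063-156601092 on the minus strand for Myl9. For Myl6 they are chr10:127930131-127930159 on the minus strand and chr10:127931028-127931056 on the plus strand. RefSeq and GENCODE release M1 place some starts differently, and by the latter only the Myl9 stretch and the second Myl6 stretch lie upstream of the gene, by 78 and 111 bp. The Myl12a stretch lies 279 bp downstream of the annotated start in an intron, that of Myl12b 216 bp downstream in a UTR, and the first of Myl6 786 bp downstream in an intron.

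Myl12a promoter: cgggctctggGGGGCGGGGccagggccag
Myl12b promoter: ttccggcccgGGGGCGGGGcggaaggagc
Myl9 promoter: tgcgCGGGGGTGGGGTGGGGGCGGGGctga
Myl6 promoter: aggggaagggTGGGAGTGGgaggctagag
Myl6 promoter: ttaatgaggTGGGGGGGGGGcgccctacc

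Myl12a and Myl12b share the match GGGGCGGGG, 1 base away from the AGGGCGGGG of Myh9 at the position where any base is taken. In the Myl9 promoter 3 pyrimidine matches and 1 purine match overlap in a run of 22 bases, and the longer run of Myl6 holds 3 overlapping purine matches in 11 bases. The same words thus stood in promoters with and without a listed site.

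Around the members, 4 lists of genes were read: other non-muscle and unconventional myosins, activators of non-muscle myosin, the myosin phosphatase, and actin with its partners. They hold 67 genes, 51 of which are listed in the gene tables, at a median of 1.00 per kb beside 0.82 for all genes. They are the closest TSS of 40 sites, 27 of them within 10 kb. Of those 27, 9 were favoured by the wild type, 13 by the mutant and 5 by neither, which is 33.3% and 48.1%. Within 1 kb 7 were favoured by the wild type, 6 by the mutant and the rest by neither. Of all 2190 sites at that distance, 31.0% were favoured by the wild type and 57.5% by the mutant. Of all 3750 sites within 10 kb, 28.8% were favoured by the wild type and 60.4% by the mutant. The median difference was -0.88 for the lists and -2.44 for all sites within 10 kb, and no test of the lists was made.

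Other myosins had 7 sites within 10 kb, 2 favoured by the wild type and 4 by the mutant, beside 28.8% and 60.4% of all sites. Of the 17 genes 9 are listed, from Myo1c, a class I motor that links membranes to actin, at 2.33 per kb, to Myo7a, a motor of sensory hair cells, at -4.15. Myo1c had 4 sites within 10 kb. The one 1924 bp upstream of the listed TSS favoured the wild type, with 6.15 for the wild type and 3.57 for the mutant. Those 1312 bp upstream, at 5.30 and 6.97, and 29 bp downstream, at 2.91 and 6.38, favoured the mutant. The one 776 bp downstream, at 4.61 and 5.49, favoured neither. By the annotation both upstream sites lie in an intron of Myo1c, so they are inside the gene. Both proteins were thus listed along the same stretch, in different proportion from site to site. Myo9a, an unconventional motor, had a wild-type-favoured site 168 bp downstream of its TSS, in its UTR, with 5.77 and 3.03. Its relative Myo9b had a mutant-favoured site 314 bp downstream in an intron, with -0.09 and 5.06. These relatives thus differed in which protein was higher at the start. Myo1f, a class I motor of blood cells that is not listed in the gene tables, had a mutant-favoured site 2132 bp upstream, in a UTR of Adamts10, with -0.09 and 5.34.

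Activators of non-muscle myosin had 6 sites within 10 kb, 0 favoured by the wild type and 4 by the mutant, too few to set apart from the 28.8% and 60.4% of all sites at this distance. Of the 18 genes 17 are listed, from the small GTPase Rhob at 3.83 per kb to the heart-type kinase Mylk3 at -5.67. Arhgef2, a guanine nucleotide exchange factor, had the largest mutant-favoured difference of these lists. Its site 353 bp downstream had -0.09 for the wild type and 7.62 for the mutant. Another, 1874 bp downstream, had -0.09 and 5.35, and both lie in an intron. Arhgef1, another exchange factor, had a mutant-favoured site 1008 bp upstream, in a UTR of Cd79a, at 3.50 and 5.47. Rhoc, a small GTPase, had one 31 bp downstream in its UTR, at 2.50 and 5.41. Arhgef1 was listed at 3.22 per kb, Arhgef2 at -0.17 and Rhoc at -1.15, so these genes differed widely in level.

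The myosin phosphatase takes the phosphate off the regulatory light chains. It had 4 sites within 10 kb, 2 favoured by each protein, beside 28.8% and 60.4% of all sites, and nothing is read from so few. All 8 genes are listed, from Ppp1r14b, an inhibitor of the phosphatase, at 4.90 per kb to Ppp1r12b, a targeting subunit, at -1.61. Ppp1ca, a catalytic subunit, had a wild-type-favoured site 232 bp upstream, with 6.10 and 2.14. Ppp1r14b had one 743 bp upstream, with 5.34 and 2.51. Ppp1r12a, the targeting subunit that holds the enzyme on myosin, had mutant-favoured sites instead. One lay 158 bp upstream of the TSS used in the site table, with -0.09 and 4.12, and the other 430 bp downstream, with -0.09 and 6.22.

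Actin and its partners had 10 sites within 10 kb, 5 favoured by the wild type and 3 by the mutant, beside 28.8% and 60.4% of all sites, with no test made. Of the 24 genes 17 are listed, from Actb, cytoplasmic beta actin, at 7.21 per kb to the crosslinker Actn1 at -2.42. Racgap1, which sets up the cleavage furrow, had the largest wild-type-favoured difference of the lists, 5.59, at a site 1026 bp upstream with 5.98 and 0.39. That difference is larger than the 3.48 of Myh9, while its wild type concentration is lower. Cfl1, which severs actin filaments, had a wild-type-favoured site 624 bp downstream at 5.42 and 3.45. Pfn1, which feeds actin monomers to growing ends, had one 773 bp downstream at 5.73 and 4.15. Actb had one 757 bp downstream at 4.77 and 3.41, and the sites of these 3 genes lie in introns of the genes themselves. Tmod1, which caps the slow-growing ends of actin in the red cell skeleton, had sites of both kinds. The one 137 bp upstream of the listed TSS, in a UTR of Tmod1 by the annotation, favoured the wild type, at 5.32 and 3.03. Those 2623 and 2957 bp downstream, in an intron, favoured the mutant, at 6.58 and 5.70 against -0.09 for the wild type. Flna, a crosslinker, had a mutant-favoured site 1632 bp downstream in an intron, at -0.09 and 5.19. Of the 13 mutant-favoured sites of all the lists, 9 (69.2%) stood at the lowest wild type concentration, beside 1423 of 3414 (41.7%) of all mutant-favoured sites.

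**Figure D4:**
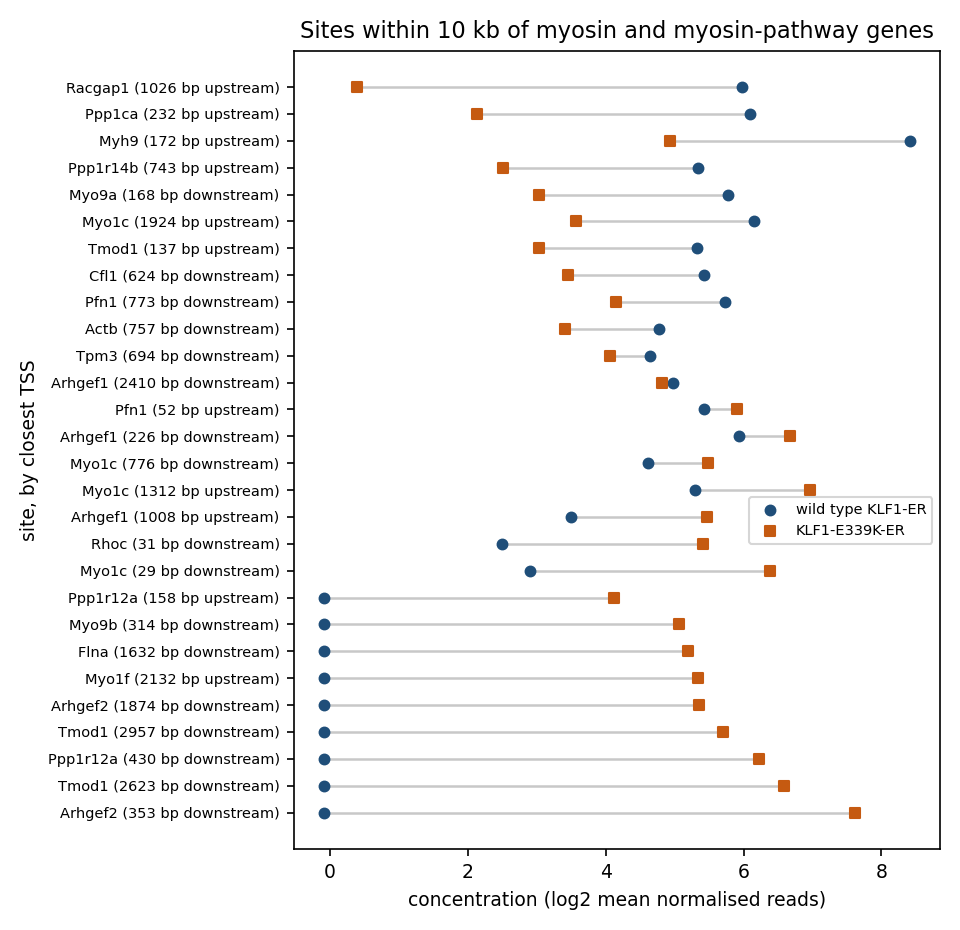
Concentration of the wild type (circles) and of KLF1-E339K-ER (squares), as the authors' log2 mean normalised reads, at the Myh9 site and at the 27 pathway sites within 10 kb, ordered by difference. The Myh9 site has the highest wild type value, 8.42, and 9 sites have the wild type at its lowest listed value, -0.09.

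Among the 9 wild-type-favoured sites of the lists, 4 held a pyrimidine match within 50 bp of the midpoint, 1 a purine match and 4 neither. Among the 13 mutant-favoured sites, 3 held a pyrimidine match, 6 a purine match and 4 neither. At the same width 60.7% of all wild-type-favoured sites held a pyrimidine match and 16.0% a purine match, and of all mutant-favoured sites 22.8% held a pyrimidine match and 45.8% a purine match. With so few sites in the lists, nothing is read from the counts beside these shares. The Myh9 site was thus not alone among wild-type-favoured sites in having no match at this width. Of the sites that hold a match within 50 bp of the midpoint, a narrower window than that of the Myh9 matches shown, those with the largest differences were taken, 1 per gene, for 4 genes favoured by the wild type and 4 by the mutant, with the match nearest to the midpoint in capitals and 10 bases on either side, on the strand that carries it. Several sites with larger differences hold no match there and are not shown, among them the most mutant-favoured sites of Arhgef2 and Tmod1, at -7.71 and -6.67, and the wild-type-favoured sites of Ppp1r14b, Myo9a, Myo1c and Tmod1. The first 4 are mm9 chr15:99483090-99483118 on the plus strand for Racgap1, chr19:4191931-4191959 on the minus strand for Ppp1ca, chr19:5491076-5491104 on the plus strand for Cfl1 and chr11:70467351-70467379 on the plus strand for Pfn1. The others are chr10:107599887-107599915 on the plus strand for Ppp1r12a, chr4:46055037-46055065 on the plus strand for Tmod1, chr3:88427179-88427207 on the minus strand for Arhgef2 and chr17:33690500-33690528 on the plus strand for Myo1f.

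Racgap1: cagttctgggTGGGTGTGGtggcacacac
Ppp1ca: ggggttcggtAGGGCGGGGttaggtcggc
Cfl1: ttccgccgtcAGGGCGGGGcgggggcggc
Pfn1: ctaacggagcTGGGAGGGGcagggtggct
Ppp1r12a: ctgtgcagttTGGGGGGGGacccggccga
Tmod1: cacagcgctgGGGGGGGGGggggctggct
Arhgef2: gcgctgggggGGGGGGGGGagatccaggg
Myo1f: atatctgctaTGGGGGGGGtaggcttgat

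Ppp1ca and Cfl1 carry the same 9 bases as Myh9, AGGGCGGGG, and their differences were 3.96 and 1.97 beside 3.48 for Myh9. The Cfl1 stretch holds a second pyrimidine match that overlaps the one in capitals. The 4 mutant-favoured sites shown, which were taken for holding a match, carry runs of G, and in Tmod1 and Arhgef2 such a run holds 7 overlapping matches. The most mutant-favoured site of Arhgef2 held 0 purine matches over its whole width, and that of Tmod1 held 1, outside the 50 bp.

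The labelled cell type was set against markers. All 11 erythroid markers are listed, led by Gata1 at 9.79 log2 CPM, with a sum of 2650 CPM. They were not uniformly high. The lowest were Hba-a1 at 3.79, Hbb-b1 at 3.87 and Alas2 at 5.29 log2 CPM, all below the megakaryocyte marker Itga2b. The other erythroid markers were above Itga2b. The lists differ in size, so their sums cannot be compared directly. Of 5 megakaryocyte and platelet markers 2 are listed, led by Itga2b at 5.30 log2 CPM, with a sum of 42.9 CPM, and Pf4, Gp1bb and Ppbp are not. Of 6 myeloid markers 3 are listed, led by Mpo at 1.84 log2 CPM, with a sum of 6.47 CPM. Of 5 lymphoid markers 0 are listed, and of 20 markers of fibroblasts and smooth or striated muscle 1 is, Col1a1, at -1.69 log2 CPM. The sarcomeric and smooth muscle myosins among these markers, such as Myh11, Myh7 and Myl2, are unlisted; other muscle myosins were not looked up. Klf1 itself was listed at 6.84 log2 CPM, a mean that pools lines with and without the transgene.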

How the data were processed

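Reads from Ion Proton sequencing were aligned by the authors with TopHat2 2.0.10 and TMAP, on the mouse build mm9, and RNA was fitted with limma-voom; they called ChIP peaks with MACS2 and GEM and merged them with DiffBind. The counting tool, its strand setting and other versions are not given in the sources used here. The deposited mean level is log2 CPM, and the deposited concentrations are log2 mean normalised reads. Columns of the authors' own comparisons hold fold changes, moderated t, p-values and false discovery rates, and were not used, so RNA was not compared between lines. The depth per library is unknown.

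Computed here were wild type minus mutant differences, levels per kb, percentiles, motif matches, annotation and coding-sequence alignments (Python 3.11.15, pandas 2.3.3, pysam 0.24.0, biopython 1.88). Sites were read from mm9 and annotated with GENCODE release M1. The search for the pyrimidine and purine motifs was tested on planted motifs, and the calls on set differences. The search for AGATAA was not tested. Protein identity was replaced by coding identity because no protein table was used here. Named were all members, the 3 sites most like that of Myh9, pathway genes with a called site within 10 kb, and the highest and lowest gene of each list. A gene of the megakaryocyte marker list was left out and is not reported here. Members and lists were chosen with earlier results of these data known.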

Additional observations from a re-analysis of the deposited data

How the results depend on the processing

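No paired analysis was possible because the tables hold summaries over libraries, with no value per replicate, and for the same reason no replicate could be left out. The mutant ChIP has 1 library only, so it has no replicate to leave out. The call of the Myh9 site at minimum differences of 2 and 3, and among sites with a concentration of at least 5, follows from the concentrations it was chosen with and says nothing of stability. Of the pathway sites within 10 kb, 9 were favoured by the wild type and 13 by the mutant, beside 28.8% and 60.4% of all such sites. With a closest TSS at any distance these were 14 and 18, beside 28.7% and 61.5%. At a minimum difference of 2 they were 6 and 11, and no share of all sites is given at that minimum. With a TSS within 1 kb they were 7 and 6, the wild type having more, beside 31.0% and 57.5%. Sites favoured by neither are not in these counts. No test was made, and nothing is read from so few sites. The Myh9 site held 0 pyrimidine matches within 50 bp of its midpoint, 1 within 100 bp and 3 over its whole width. Per kb of exon length the levels were 4.18 for Myh9, 4.85 for Myh10, 5.07 for Myl6, 2.91 for Myl12a and 1.82 for Myl12b. With no length correction they were 7.87, 8.24, 4.48, 4.58 and 2.60, which puts Myh10 first in place of Myl6; Myl12b was lowest on every scale. With 1 mean per protein and per gene, no error can be set beside these values, and the lowest listed wild type concentration of -0.09 limits how large a mutant-favoured difference can be.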

Other observations

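Other sites near Myh9 were named after their values were seen. Within 150 kb of its start the table lists 4 more sites. The one 86872 bp downstream, next to Apol8, favoured the wild type, with 5.68 for the wild type and 0.88 for the mutant. Upstream, a site at 46440 bp and a site at 86778 bp, both with Txn2 as closest TSS, favoured the mutant, at 2.23 and 5.02 and at 2.82 and 5.69. The farthest, at 135696 bp, with Eif3d as closest TSS, favoured neither, at 5.10 and 5.60.

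Of the pathway sites, 13 lie beyond 10 kb of their closest TSS, 5 favoured by each protein, where 28.4% of all 1801 sites at such distances were favoured by the wild type and 63.9% by the mutant. Those named here were picked after their values were seen. Arhgef12 had a wild-type-favoured site in its intron, 44432 bp downstream, at 4.79 and at the lowest listed mutant value of -0.38. Cdc42bpa, a kinase that phosphorylates regulatory light chains, had one 68854 bp downstream in its intron, at 5.32 and 0.34. Myo18a had mutant-favoured sites at 0.50 and 6.79 and at -0.09 and 6.25, and a wild-type-favoured one at 5.46 and 2.94.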
